A study of Sus scrofa with 6 samples.

Results

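The cells described here were the mucosal fibroblasts of the neonatal piglet ileum, 602 of 76099 barcodes in 6 single-cell libraries. A barcode stands for a droplet that should hold 1 cell, and a UMI for 1 captured transcript. Barcodes with at least 1000 UMIs and 500 genes were kept. A kept barcode was taken as a fibroblast when COL3A1, COL1A1 and COL1A2 together had at least 10 UMIs, PDGFRA and DPT together at least 1, PECAM1 none, FCAMR, PLA2G2D and BTC together fewer than 3, and PTPRC at most 1. These 10 genes chose the cells, and their levels are given below as a description. The study followed the ileum of suckling male large white piglets with no stated treatment from birth (day 0) over days 1, 3, 7, 14 and 21. Each age was 1 library of 77391932 to 100348769 UMIs, made from cells of several piglets loaded together. The ileal mucosa was scraped off before digestion, so deeper layers of the wall were not taken on purpose. With 1 library an age, animals cannot be separated, age and library cannot be told apart, no test between ages was possible, and every interval below covers counting error only.

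Fibroblasts of the gut lie in the lamina propria between the epithelium and the muscle. They make the collagens, proteoglycans and glycoproteins of the matrix and anchor blood vessels, nerves and immune cells. PDGFRA-high fibroblasts just beneath the epithelium release BMP and WNT ligands that act on the crypt and villus, whereas other fibroblasts near vessels and lymphoid tissue release BMP inhibitors, chemokines and complement proteins.

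By the rule, fibroblasts were found in the first 3 libraries and not in the last 3. At day 0, 210 of 10836 kept barcodes met the rule, which was 1.94% (95% exact binomial interval 1.69 to 2.22). At day 1 the count was 274 of 11494, or 2.38% (2.11 to 2.68). At day 3 it was 118 of 11361, or 1.04% (0.860 to 1.24). The day 3 interval lay below the other 2, which overlapped each other. At days 7, 14 and 21, 0 of 12634, 0 of 15956 and 0 of 13818 barcodes met the rule, which allowed shares of up to 0.0238%, 0.0188% and 0.0217% by the limit that 3 counts set. The upper ends of the exact 95% intervals were 0.0292%, 0.0231% and 0.0267%. Over whole libraries, the collagens that chose the cells were lower as well, which is a description. COL3A1, the chain of type III collagen, stood at 114, 136 and 103 UMIs per 1000000 UMIs of the library on days 0, 1 and 3. It stood at 2.38 on day 7, 0.399 on day 14 and 0.465 on day 21. Only 0, 3 and 3 barcodes of those 3 libraries passed the collagen step of the rule, against 297, 400 and 224 on days 0, 1 and 3. Of genes outside the rule, CCL11 stood at 2.40, 6.57 and 1.17 UMIs per 1000000 on days 0, 1 and 3 and at 0.0123, 0 and 0 on days 7, 14 and 21. SPON1 differed less, at 6.37, 4.02 and 2.10 on the first 3 days and 0.429, 0.508 and 0.917 on the last 3. The near absence on days 7, 14 and 21 was not particular to fibroblasts. Those libraries held 0, 2 and 1 muscle cells or pericytes and 2, 0 and 0 endothelial cells, by the rules used below. Follicular stromal cells numbered 0 in each of them. Whether fewer fibroblasts were present in the tissue or fewer were released from it was not tested.

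**Figure D1:**
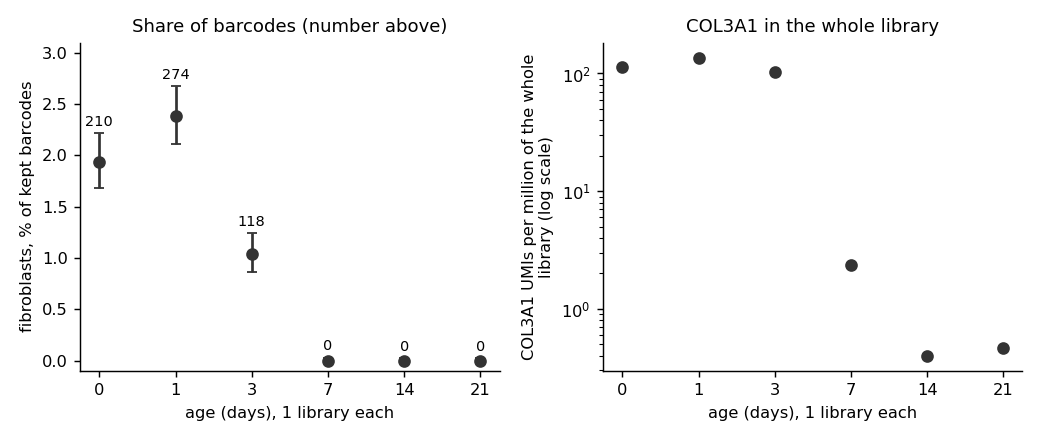
Left, fibroblasts as a percentage of the kept barcodes of each library, with exact 95% binomial intervals and the number of cells above each point. Right, COL3A1 UMIs per 1000000 UMIs of the whole library on a log axis; the 3 early libraries sat between 103 and 136, and the 3 late ones at 2.38 or below.

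The rule fixed the collagens, PDGFRA and DPT, which are given first as a description. The 3 collagen genes together had a median of 39 UMIs per cell at day 0, 39 at day 1 and 51 at day 3. PDGFRA, the receptor of platelet-derived growth factor, was found in 136 of 210, 218 of 274 and 101 of 118 cells. DPT, a matrix protein that binds decorin, was found in 145, 210 and 64 cells, and 71, 154 and 47 cells held both. At the edge of the rule, 13, 28 and 1 fibroblasts had 10 to 14 collagen UMIs, with a median depth of 2976, 3576 and 1769 UMIs. Barcodes that met all other steps with 5 to 9 collagen UMIs numbered 8, 10 and 3. On days 7, 14 and 21 such barcodes numbered 0, 2 and 0, and both of day 14 held LUM and DCN. Fibroblasts had a median of 3661 UMIs at day 0, 4538 at day 1 and 3823 at day 3, with 1582, 1922 and 1737 genes. Their median mitochondrial share was 6.32%, 3.78% and 5.57%. No barcode was a fibroblast in more than 1 library. Pairs of libraries shared 31 to 68 barcodes, among them at most 3 fibroblast barcodes of a pair (3 from day 1 in the day 3 library and 3 from day 3 in the day 21 library).

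Levels below are UMIs of a gene per 10000 UMIs summed over the fibroblasts of a day. They compare 1 gene between days or cells, not genes with each other. The 20 genes that stood furthest above the other kept barcodes on all 3 days included genes that the rule did not use. CCL11, the eotaxin that attracts eosinophils, stood at 1.54 on day 0, 2.84 on day 1 and 1.42 on day 3, against 0.00338 on day 0, 0.00884 on day 1 and 0.00201 on day 3 in the other barcodes. POSTN, a matricellular protein, stood at 19.5 on day 0, 28.1 on day 1 and 31.0 on day 3, against at most 0.141 elsewhere. PTN, a heparin-binding growth factor, stood at 21.0 on day 0, 11.9 on day 1 and 19.9 on day 3, against at most 0.0712 elsewhere. LUM, a proteoglycan of collagen fibrils, stood at 9.68 on day 0, 10.4 on day 1 and 8.93 on day 3, against at most 0.0594 elsewhere. COL6A5, SFRP1, SFRP2, SLITRK6, EFEMP1, C7, SCARA5 and ROBO2 were also among the 20. Of the 4 fibroblast markers that the rule did not use, CCL11, LUM and DCN were among the 20. SPON1, the fourth, stood at 1.09 on day 0, 0.942 on day 1 and 1.12 on day 3, against 0.0504 on day 0, 0.0211 on day 1 and 0.0127 on day 3 in the other barcodes.

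Defining genes of some lineages were near 0 in the fibroblasts and those of others were not. The 10 endothelial markers together stood at 0.226 on day 0, 0.166 on day 1 and 0.0373 on day 3, and 5, 2 and 8 of them were at 0. PECAM1, which the rule held at 0, is among these markers and among those at 0. None of the 4 measured mesothelial markers had a UMI. The 12 epithelial markers together stood at 15.7 on day 0, 7.91 on day 1 and 0.336 on day 3, against 53.0 on day 0, 50.8 on day 1 and 1.26 on day 3 in the other barcodes and 46.7 on day 0, 60.7 on day 1 and 3.13 on day 3 in barcodes with 100 UMIs or fewer, which hold mostly free RNA. The 8 T and NK markers stood at 4.23 on day 0, 0.547 on day 1 and 0.541 on day 3. Of the fibroblasts, 47 at day 0, 51 at day 1 and 10 at day 3 held at least 3 UMIs of such other-lineage lists. One day 0 barcode held 112713 UMIs, 11.09% of all UMIs of the day 0 fibroblasts, with 426 UMIs of epithelial markers; the next deepest held 26496. Whether such barcodes held more than 1 cell was not tested.

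Set beside other stromal cells of the same libraries, the fibroblasts had more DPT than each of the 3 other classes, which the rule partly fixed, and more COL6A5 and EPHA3 than muscle cells or endothelium. Muscle cells or pericytes, chosen by contractile genes, numbered 77, 120 and 50 on days 0, 1 and 3, endothelial cells 231, 264 and 24, and follicular stromal cells 0, 10 and 23. RGS5, a pericyte marker, stood at 0.0787 on day 0, 0.263 on day 1 and 0.0373 on day 3 in fibroblasts and at 30.9 on day 0, 17.7 on day 1 and 34.3 on day 3 in muscle cells or pericytes, where it was part of the rule. ITGA7, a laminin receptor that no rule used, stood at 0.0197 on day 0, 0.0139 on day 1 and 0 on day 3 in fibroblasts, against 2.16 on day 0, 1.97 on day 1 and 2.73 on day 3. In the other direction, EPHA3, a receptor for ephrins, stood at 1.77 on day 0, 1.78 on day 1 and 2.98 on day 3 in fibroblasts and at 0 in the muscle cells or pericytes of each day. MMP1, interstitial collagenase, stood at 7.79 and 13.2 in fibroblasts on days 1 and 3 and at 0.144 and 0 in follicular stromal cells. MMP3, stromelysin, stood at 3.32 on day 0, 3.08 on day 1 and 8.06 on day 3 in fibroblasts and at 0 in follicular stromal cells on days 1 and 3. ADAMDEC1, a protease of lamina propria stroma, did not separate the fibroblasts from follicular stromal cells. It stood at 24.3 on day 0, 14.8 on day 1 and 24.1 on day 3 in fibroblasts and at 28.1 and 19.5 in follicular stromal cells on days 1 and 3, but at no more than 2.93 in muscle cells or pericytes. CXCL13, the chemokine that draws B cells into follicles, stood at 0.954 on day 0, 3.72 on day 1 and 6.10 on day 3 in fibroblasts and at 104 and 189 in follicular stromal cells. None of these differences between classes was tested.

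Clustering split the 602 fibroblasts into 9 groups, named here by a leading gene. Because the clustering used the 2000 most variable genes of these same cells, the groups are a description. The COL15A1 group (152 cells) and the CTGF group (151 cells) shared high DCN and CCL11. DCN, decorin, stood at 41.6 and 55.6 in them, against 3.76 in the SOX6 group. The COL15A1 group was led by COL15A1, LGI1, SLIT3 and SPON1, and C7, a terminal complement component, stood at 8.57 there. The CTGF group was led by SHISA2, CTGF, AGTR1, the angiotensin receptor, and FNDC1.

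The SOX6 group (149 cells) was subepithelial-like. It held the highest sum of the 12 subepithelial markers, 71.5 UMIs per 10000, with 11 of the 12 present in at least 10% of its cells. The COL15A1 and CTGF groups held 52.4 and 51.2 of the same list, most of it POSTN, at 41.1 and 39.5 against 18.96 in the SOX6 group. The other 11 markers were each higher in the SOX6 group than in those 2. PDGFRA stood at 17.4 there, against 3.42 in the COL15A1 group and 2.72 in the CTGF group. The rule partly fixed this, since a cell without DPT had to hold PDGFRA, which also counts in the sum of the 12 markers. BMP4 stood at 11.7, BMP5 at 4.14 and FOXL1, a transcription factor of subepithelial stroma, at 2.27. The COL15A1 group had 3.24, 1.40 and 0.385 of the same 3 genes. The leading genes of the SOX6 group were CALCB, which encodes a calcitonin gene-related peptide, GLP2R, the receptor of the gut hormone GLP-2, COL4A6, COL4A5, EDNRB, an endothelin receptor, and SOX6. The SFRP2 group (39 cells) shared EDNRB and WNT5A with it, and was set apart by SFRP2, a WNT inhibitor, at 24.95 against 1.161. BMP3 stood at 11.8 in the SFRP2 group and 4.64 in the SOX6 group. WNT16, a WNT ligand, stood at 3.50 and 0.641. CXCL12, which binds CXCR4, stood at 15.3 and 2.17.

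The GREM1 group (38 cells) carried genes of lymphoid stroma. GREM1, a BMP inhibitor, stood at 16.0 there, CCL19, a ligand of CCR7, at 69.9, and CXCL13 at 16.5. CLU, clusterin, stood at 27.1 and complement C3 at 34.7. In the COL15A1 group the same 5 genes stood at 0, 3.96, 0.0175, 0.455 and 2.59. Summed over the group, the follicular stromal markers stood at 120.2 and the markers of CD81-high or adventitial fibroblasts at 70.7, both the highest of the 9 groups, and the lamina propria fibroblast markers at 107.8, against 103.4 in the COL15A1 group, whose intervals overlapped. Of 9 lamina propria markers, 6 were present in at least 10% of the cells of the GREM1 group, 8 in the COL15A1 group and 9 in the CTGF group. Of the 11 CD81-high or adventitial markers, 5 were present in at least 10% of its cells. The groups with ACTG2 and with MKI67, described next, also had 5, and the COL15A1 group had 4. C3 and GREM1 are on that list and made up most of its sum. In the COL15A1 group the list stood at 30.3, and the rest of the list was together higher there than in the GREM1 group. The follicular stromal sum was reached although fewer than 3 UMIs of FCAMR, PLA2G2D and BTC were allowed per cell. The other 4 groups were small. One had epithelial genes (24 cells, epithelial markers at 61.8), one KLRB1, IL7R and CTSW (21 cells, T and NK markers at 19.9), one ACTG2 and MYH11 (15 cells) and one MKI67 and other division genes (13 cells). The first 2 of these stay unnamed.

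**Figure D2:**
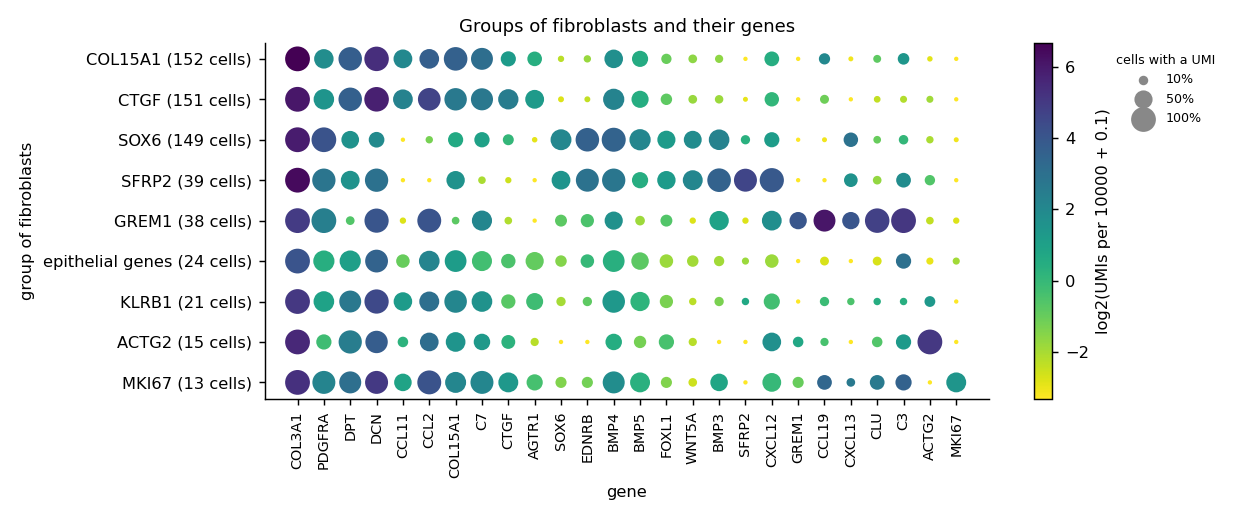
Level (colour, log2 of UMIs per 10000 plus 0.1) and share of cells with a UMI (dot size) of 26 genes in the 9 groups of fibroblasts. DPT, DCN and CCL11 run with the COL15A1 and CTGF groups, PDGFRA, EDNRB and BMP4 with the SOX6 and SFRP2 groups, and CCL19, CLU and C3 with the GREM1 group. The rule required a UMI of PDGFRA or DPT in each cell.

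In the clustering shown, where each library was centred, all 5 larger groups held cells of each day. The COL15A1 group had 85, 46 and 21 cells on days 0, 1 and 3, the CTGF group 38, 99 and 14, the SOX6 group 43, 65 and 41, the SFRP2 group 15, 3 and 21, and the GREM1 group 3, 27 and 8. Other clustering settings gave 6 to 10 groups, and the 3 large groups were not stable. At the lower resolution the COL15A1 and CTGF groups merged, together with the group with epithelial genes. Without centring per library, 50.3% of the SOX6 cells stayed together, and their counterpart held 3.285% of the day 1 fibroblasts in place of 23.7%. The counterpart of the CTGF group then held 5.71%, 45.6% and 0% of the fibroblasts of days 0, 1 and 3. In the clustering shown the CTGF group held 18.1%, 36.1% and 11.9%. Sizes of the 3 large groups were therefore not compared between days, and values within them hold for the clustering shown. The SFRP2 group merged with the SOX6 group at the lower resolution, and without centring per library its counterpart held 18.6% of the day 1 fibroblasts in place of 1.095%, so the cells of the SFRP2 group changed with the clustering, and its day 1 levels rest on 3 cells. The GREM1 group held 1.43% of the day 0 fibroblasts and 9.85% of the day 1 fibroblasts and had the same counts at both other resolutions tried. A level over all fibroblasts of a day mixes groups, and levels within groups are given below for some of the genes and lists. The group with epithelial genes had 13, 11 and 0 cells on days 0, 1 and 3. It held 221763 of the 1016543 fibroblast UMIs of day 0 and 155478 of the 1443732 of day 1. Fibrillar collagens stood at 26.0 in it on day 0, against 170.7 in the COL15A1 group. Levels over all fibroblasts thus include this group on days 0 and 1 and not on day 3.

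The fibroblasts of day 1 were set beside those of day 0. A gene was compared when it had at least 100 UMIs over the 2 days, and counted when its level differed at least 2-fold. Of 3737 genes compared, 170 were higher on day 1 (4.55%) and 58 lower (1.55%), and the median gene was at 1.07 times its day 0 level. The higher genes included chemokines, complement and matrix genes, and the lower ones VEGFC, PTX3, F3 and CXCL14.

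Of 10 chemokines compared, 5 were higher on day 1 (CCL2, CCL19, CXCL2, CXCL10 and CXCL13) and 2 were lower (CXCL14 and CCL5). The shares over all genes were 4.55% and 1.55%. CCL5 is also a T and NK marker. It stood at 3.64 on day 0, 0.0693 on day 1 and 0.205 on day 3, and in the group with KLRB1 and IL7R at 34.5 on day 0 in 9 cells and 0 on day 1. It stood at 15.4 on day 0 in the 3 cells of the GREM1 group, and in the 3 large groups it did not pass 0.516 on any day. The T and NK list had 332 UMIs in those 9 cells and 30 in those 3, and its part in the lower CCL5 was not tested. Of the 5 higher chemokines, 1 had enough UMIs within each large group, and it was not past 2-fold in all 3. The follicular stromal list, which holds CCL19 and CXCL13, stood at 3.09 on day 0, 20.5 on day 1 and 16.1 on day 3. All 4 of its genes compared were past 2-fold higher on day 1. Without the GREM1 group and the small groups with ACTG2, division, epithelial or lymphoid genes, 2 were higher and 1 was lower. The part of this list in the higher chemokines was not tested. The median ratio of the 10 chemokines was 2.28. CCL2, which attracts monocytes, stood at 5.28 on day 0, 19.4 on day 1 and 3.34 on day 3, a ratio of day 1 over day 0 of 3.68 (95% interval 3.35 to 4.04). In the COL15A1 group it stood at 8.65 on day 0, 21.9 on day 1 and 7.58 on day 3, and in the CTGF group at 9.57 on day 0, 33.5 on day 1 and 5.33 on day 3. In the SOX6 group CCL2 did not pass 0.657 on any day. CXCL10, a ligand of CXCR3 that interferon raises, stood at 3.39 on day 0, 9.22 on day 1 and 11.2 on day 3, and CXCL2, which attracts neutrophils, at 0.0295 on day 0, 1.73 on day 1 and 0.616 on day 3. CXCL2 rested on 3 UMIs at day 0 and 250 at day 1, and it stood at 0.450 on day 0, 1.62 on day 1 and 0.180 on day 3 in the other barcodes, above the fibroblasts on day 0 and near them on day 1. AMCF-II, a pig neutrophil chemokine, stood at 0.0984 on day 0, 1.12 on day 1 and 0.336 on day 3, or 10, 162 and 18 UMIs.

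CXCL14, a chemokine of epithelium and stroma that maps to chromosome 2, 137803988 to 137813118 of Sscrofa11.1, went the other way. It stood at 44.1 on day 0, 17.3 on day 1 and 59.6 on day 3, a ratio of 0.394 (95% interval 0.375 to 0.414) for day 1 over day 0 and 3.44 (95% interval 3.26 to 3.62) for day 3 over day 1. The low day 1 value was present in 2 of the 3 large groups. In the CTGF group CXCL14 stood at 102 on day 0, 17.2 on day 1 and 43.7 on day 3, and in the SOX6 group at 98.0 on day 0, 17.9 on day 1 and 60.0 on day 3. In the COL15A1 group it stood at 33.3 on day 0, 28.1 on day 1 and 42.8 on day 3. The other barcodes had 1.14 on day 0, 0.675 on day 1 and 0.197 on day 3.

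CCL19, MGP, C2 and CLU stood far higher in the GREM1 group than in any other group of fibroblasts, and that group had 3, 27 and 8 cells on days 0, 1 and 3. MGP, matrix Gla protein, an inhibitor of calcification, stood at 0.817 on day 0, 12.7 on day 1 and 9.47 on day 3, a ratio of 15.5 (95% interval 12.4 to 19.6) for day 1 over day 0. Within the GREM1 group it stood at 31.97 on day 0, 93.5 on day 1 and 45.2 on day 3, where day 0 had 3 cells. In the COL15A1 group MGP stood at 0.380 on day 0, 7.81 on day 1 and 0.303 on day 3, and in the SOX6 group it did not pass 0.138. CCL19 stood at 0.689 on day 0, 12.1 on day 1 and 4.08 on day 3 over all fibroblasts and at 0.887 on day 0, 9.29 on day 1 and 3.34 on day 3 in the COL15A1 group. Of 12 complement genes compared, 5 were higher on day 1, C2, C4A, CLU and CD55 among them, and 1 was lower (CFI, an inhibitor). The shares over all genes were 4.55% and 1.55%. Complement C2 stood at 0.325 on day 0, 1.35 on day 1 and 2.43 on day 3, and C4A at 1.26 on day 0, 3.62 on day 1 and 6.16 on day 3. C4A was highest in the GREM1 group as well, at 27.2, against 1.58 in the COL15A1 group. Without the GREM1 group and the small groups with ACTG2, division, epithelial or lymphoid genes, 0 of the 12 were past 2-fold higher and 2 were past 2-fold lower. CXCL13 was highest in the GREM1 and SOX6 groups, followed by the MKI67 group at 6.23 and the SFRP2 group at 3.01. It stood at 2.77 on day 0, 12.9 on day 1 and 2.46 on day 3 in the SOX6 group and at 16.5 over all days in the GREM1 group.

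Of 10 genes of the list of cytokines, their receptors and lymphoid survival factors compared, 5 were higher on day 1 and none was lower. The 5 became 2 or 3 under several other settings. The shares over all genes were 4.55% and 1.55%. Of the 5, which include ICAM1, an adhesion molecule, 2 had enough UMIs within each large group, and 0 of those were past 2-fold in all 3. TNFSF10, which encodes the death ligand TRAIL, stood at 0.453 on day 0, 1.52 on day 1 and 1.604 on day 3, and IL1R1, the interleukin-1 receptor, at 0.216 on day 0, 0.797 on day 1 and 0.578 on day 3. CSF1, the growth factor of macrophages, stood at 0.256 on day 0, 0.526 on day 1 and 0.522 on day 3. IL6 had 1, 23 and 3 UMIs and IL33 4, 32 and 10, below the count needed for a comparison. In all 3 large groups IRF1, a transcription factor of the interferon response, had ratios of day 1 over day 0 above 2-fold, at 5.18, 6.02 and 3.57. Over all fibroblasts IRF1 stood at 0.462 on day 0, 3.64 on day 1 and 0.354 on day 3, and in the other barcodes at 0.732 on day 0, 2.28 on day 1 and 0.563 on day 3, highest on day 1 in both. ANGPTL4, a secreted inhibitor of lipoprotein lipase, stood at 0.167 on day 0, 1.81 on day 1 and 1.53 on day 3, and was higher on day 1 in each of the 3 groups as well, by 5.55, 5.95 and 19.5 times. The other barcodes had 0.310 on day 0, 0.507 on day 1 and 0.760 on day 3.

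Between days 0 and 1, 6.10% of all genes compared were past 2-fold in either direction. Whether the share among collagens differed from this was not tested. None of 6 fibrillar collagens and 1 of 15 other collagens differed 2-fold, the latter being COL18A1, the source of endostatin, at 6.21 on day 0, 3.08 on day 1 and 6.58 on day 3. None of 9 proteoglycans and 3 of 27 elastic fibre and matrix glycoproteins (TNC, TNXB and EFEMP1) were higher, as were 4 of 17 matrix proteases and inhibitors (PLAT, SERPINE2, TIMP1 and TIMP3), beside 4.55% of all genes. Summed, the proteoglycans stood at 46.4 on day 0, 68.6 on day 1 and 46.9 on day 3, a ratio of 1.48 (95% interval 1.43 to 1.53) for day 1 over day 0. EFEMP1, a fibulin, stood at 1.54 on day 0, 3.37 on day 1 and 3.06 on day 3, and TNXB, a tenascin, at 1.48 on day 0, 3.62 on day 1 and 2.07 on day 3. Among the lower genes, PTX3, a soluble pattern recognition protein, stood at 0.915 on day 0, 0.284 on day 1 and 0.522 on day 3, F3, tissue factor, at 0.944 on day 0, 0.326 on day 1 and 1.38 on day 3, and VEGFC, the lymphatic growth factor, at 1.08 on day 0, 0.436 on day 1 and 0.746 on day 3. VEGFA stood at 1.84 on day 0, 1.63 on day 1 and 1.32 on day 3 and HGF at 1.06 on day 0, 0.894 on day 1 and 0.914 on day 3, neither past 2-fold.

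The comparison of day 3 with day 1 shares the day 1 library with the one above. Of 3162 genes compared, 133 were higher on day 3 (4.21%) and 200 lower (6.33%), with a median ratio of 1.04. With TMM factors 96 were higher and 236 lower. Of the lists compared, 15 of 16 immediate early genes were lower on day 3, and 11 of 15 non-fibrillar collagens were higher. The 10 genes with the lowest ratios were MAFF, FOS, EGR1, ATF3, ZFP36, NFKBIZ, GADD45B, JUNB, SOCS3 and OTUD1.

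Immediate early genes, which cells switch on within minutes of a stimulus and also during tissue dissociation, together stood at 60.2 on day 0, 107 on day 1 and 14.6 on day 3. Of 16 compared, 15 were lower on day 3 than on day 1. Their median ratio was 0.101, beside 1.04 over all genes. FOS, a subunit of the AP-1 transcription factor, stood at 6.88 on day 0, 12.7 on day 1 and 0.727 on day 3, a ratio of 0.0575 (95% interval 0.0408 to 0.0789). EGR1, a zinc finger factor, stood at 4.88 on day 0, 12.4 on day 1 and 0.783 on day 3, JUNB, another AP-1 subunit, at 7.71 on day 0, 17.7 on day 1 and 1.27 on day 3, and SOCS3, a brake on cytokine signalling, at 0.895 on day 0, 4.04 on day 1 and 0.298 on day 3. All 4 were highest on day 1 and lowest on day 3. Of 17 compared between days 0 and 1, 6 were higher on day 1 (JUNB, EGR1, IER3, BTG2, ZFP36 and SOCS3) and none lower. The level of barcodes with 100 UMIs or fewer was also subtracted, scaled by the epithelial markers of fibroblasts over those of such barcodes. Of 1594 and 1142 epithelial UMIs on days 0 and 1, 1379 and 952 lay in the group of 24 cells with epithelial genes. Before scaling, this list stood in such barcodes at 80.7 on day 0, 62.4 on day 1 and 55.4 on day 3. After the subtraction, 13 of the list were past 2-fold higher on day 1 than on day 0. Between days 3 and 0, 14 of 15 were lower on day 3, and 7 after the subtraction. Of those 14, 5 had enough UMIs within each of the 3 large groups, and 2 of them were past 2-fold in all 3.

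The low day 3 level was present in every large group, and the day 0 level was not the same in them. The list stood at 13.3 on day 0, 48.1 on day 1 and 9.25 on day 3 in the COL15A1 group. It stood at 114 on day 0, 136 on day 1 and 18.2 on day 3 in the CTGF group and at 83.8 on day 0, 139 on day 1 and 9.84 on day 3 in the SOX6 group. Of the 15 genes, 12 had enough UMIs within each of the 3 groups, and 10 of those were past 2-fold lower in all 3. The low day 3 level was not particular to fibroblasts. Muscle cells or pericytes had 93.7 on day 0, 126 on day 1 and 14.7 on day 3, endothelial cells 89.4 on day 0, 116 on day 1 and 24.3 on day 3, and all remaining barcodes 101 on day 0, 83.0 on day 1 and 44.4 on day 3. On day 0 the fibroblasts were below the remaining barcodes, and on day 1 above them. The part of dissociation in these levels was not tested.

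**Figure D3:**
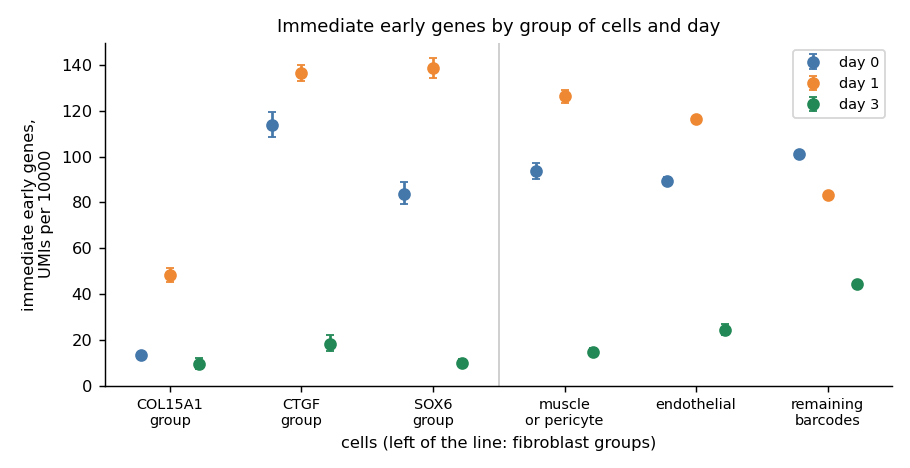
Summed level of immediate early genes (UMIs per 10000, with exact 95% Poisson intervals) by day in the 3 large groups of fibroblasts, left of the line, and in muscle cells or pericytes, endothelial cells and all remaining barcodes. Every day 3 point lies below the day 1 point of the same cells; the COL15A1 group was also low on day 0, at 13.3.

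Of 15 non-fibrillar collagens compared, 11 were higher than on day 1 and none was lower, with a median ratio of 2.14. With TMM factors, another scaling of the libraries, or with each cell thinned to 1000 UMIs, 7 of the 15 were past 2-fold. Summed, they stood at 83.0 on day 0, 72.7 on day 1 and 139 on day 3. COL6A2, a chain of the beaded-filament collagen VI, stood at 6.94 on day 0, 7.13 on day 1 and 18.0 on day 3, a ratio of 2.52 (95% interval 2.31 to 2.76). COL6A5, a further collagen VI chain, stood at 2.97 on day 0, 2.57 on day 1 and 8.90 on day 3, and COL14A1, which decorates collagen fibrils, at 2.22 on day 0, 1.39 on day 1 and 4.36 on day 3. COL4A5 and COL16A1 stood at 2.14 and 0.610 on day 1 and 6.29 and 2.33 on day 3. In each of the 3 large groups the list was higher on day 3. Of the 11 genes, 7 had enough UMIs within each of these groups, and 4 of those were past 2-fold in all 3. It stood at 119 on day 0, 105 on day 1 and 179 on day 3 in the COL15A1 group and at 77.4 on day 0, 77.1 on day 1 and 149.7 on day 3 in the CTGF group. In the SOX6 group it stood at 127 on day 0, 107 on day 1 and 194 on day 3. Muscle cells or pericytes had 68.6 on day 0, 58.5 on day 1 and 88.6 on day 3.

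Of 6 fibrillar collagens compared, only COL5A1, which sets fibril diameter, was past 2-fold, at 1.29 on day 0, 0.949 on day 1 and 3.02 on day 3. It was higher on day 3 in all 3 large groups, by 2.79, 3.33 and 3.998 times. COL3A1 stood at 60.0 on day 0, 49.97 on day 1 and 90.3 on day 3, COL1A1 at 13.9 on day 0, 17.5 on day 1 and 20.7 on day 3 and COL1A2 at 23.6 on day 0, 29.8 on day 1 and 38.6 on day 3, and these 3 chose the cells. Of 27 matrix glycoproteins 7 were higher on day 3 (FBN1, FBN2, MFAP2, FN1, EMILIN1, NID2 and LAMC1). FBN1, fibrillin-1, stood at 1.61 on day 0, 1.62 on day 1 and 3.75 on day 3, and FN1, fibronectin, at 7.17 on day 0, 4.63 on day 1 and 13.2 on day 3. Of these 7, 6 had enough UMIs within each large group, and 2 of those were past 2-fold in all 3. Of 15 collagen-processing genes, 1, LOX, was past 2-fold lower on day 3 than on day 1 and none was higher. Over all genes compared, 6.33% were lower and 4.21% higher. The median ratio of the 15 was 1.24, beside 1.04 over all genes, and their summed level had a ratio of 1.10. Whether they differed from the collagens was not tested. DCN was the 1 proteoglycan of 9 past 2-fold, lower on day 3, at 19.2 on day 0, 37.0 on day 1 and 17.8 on day 3. Within the COL15A1 group DCN stood at 34.1 on day 0, 51.4 on day 1 and 49.6 on day 3, and within the CTGF group at 34.1 on day 0, 63.4 on day 1 and 49.9 on day 3, so that day 3 was not past 2-fold below day 1 in either.

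Of 18 genes of the cytoskeleton and contraction, 7 were higher on day 3 than on day 1 and none was lower. The shares over all genes were 4.21% and 6.33%. ACTA2, smooth muscle actin, stood at 4.45 on day 0, 3.28 on day 1 and 13.1 on day 3, TAGLN, transgelin, at 3.89 on day 0, 5.08 on day 1 and 11.3 on day 3, and MYH11, smooth muscle myosin, at 0.502 on day 0, 0.741 on day 1 and 2.52 on day 3. Without the 2 groups with epithelial or lymphoid genes, 4 of the 18 were past 2-fold higher, and as a mean over cells 3 were. With thinning, and without cells with at least 3 UMIs of other lineages, 1 was lower. Of the 7, 4 had enough UMIs within each large group, and 2 of those were past 2-fold in all 3. ACTA2 in the SFRP2 group stood at 10.0, 0.723 and 14.7 on days 0, 1 and 3, and in the ACTG2 group of 15 cells at 76.4 over all days. In the CTGF group it stood at 5.98 on day 0, 1.51 on day 1 and 8.77 on day 3 and in the SOX6 group at 1.66 on day 0, 2.99 on day 1 and 4.67 on day 3. MYH11 stood at 20.55 in the ACTG2 group over all days, against 0.3648 in all other fibroblasts. The ACTG2 group had 3, 7 and 5 cells on days 0, 1 and 3. It held 22157 of 1016543, 31495 of 1443732 and 37359 of 536180 fibroblast UMIs. Its part in the higher MYH11 of day 3 was not tested.

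Of 17 matrix proteases and inhibitors compared, 4 were higher on day 3 than on day 1 (MMP3, MMP11, MMP14 and ADAMTS9) and none was lower. The shares over all genes were 4.21% and 6.33%. MMP3 stood at 3.32 on day 0, 3.08 on day 1 and 8.06 on day 3, and MMP11 at 0.698 on day 0, 0.956 on day 1 and 2.26 on day 3. MMP14, a membrane-bound collagenase, stood at 0.521 on day 0, 0.485 on day 1 and 1.01 on day 3. Of these 4, 2 had enough UMIs within each large group, and 0 of those were past 2-fold in all 3. TIMP1, an inhibitor of these enzymes, stood at 2.32 on day 0, 5.34 on day 1 and 6.12 on day 3 and was past 2-fold higher on day 1 than on day 0, with TIMP3, PLAT and SERPINE2.

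Few WNT and BMP genes reached the count for a comparison. Of 4 WNT genes compared, SFRP2 was past 2-fold between days 1 and 3, higher on day 3, beside 4.21% of all genes. With a collagen minimum of 20 UMIs, with thinning, or without cells with UMIs of other lineages, 2 were higher, and with thinning 1 was lower. SFRP2, at chromosome 8, 75337311 to 75345926, stood at 1.06 on day 0, 0.291 on day 1 and 5.82 on day 3, or 108, 42 and 312 UMIs. Within the SFRP2 group it stood at 15.1 on day 0, 0 on day 1 and 38.1 on day 3, in 15, 3 and 21 cells. SFRP1, a related WNT inhibitor, stood at 1.36 on day 0, 2.51 on day 1 and 3.43 on day 3 and was higher on day 3 than on day 0 in each large group, by 3.07, 11.6 and 4.41 times. WNT5A, a ligand of noncanonical WNT signalling, stood at 0.728 on day 0, 0.907 on day 1 and 1.75 on day 3, and WNT2B, a canonical ligand, at 0.384 on day 0, 0.471 on day 1 and 0.168 on day 3. WNT4 stood at 0.787 on day 0, 1.05 on day 1 and 1.04 on day 3. Of the R-spondins, which amplify WNT signals at the crypt, RSPO2 had 0, 1 and 1 UMIs and RSPO3 2, 4 and 5.

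Among 7 BMP and TGF-beta genes compared, BMP3 and GREM1 were higher on day 3 than on day 1, beside 4.21% of all genes. As a mean over cells, without cells with UMIs of other lineages or without the 5% of cells with the most UMIs, 1 was higher, and 0 of the pair had enough UMIs within each large group. BMP3 stood at 1.24 on day 0, 1.27 on day 1 and 4.27 on day 3, and in the SOX6 group at 2.91 on day 0, 4.56 on day 1 and 6.37 on day 3. GREM1, which binds and blocks BMP ligands, stood at 0.344 on day 0, 1.164 on day 1 and 3.47 on day 3, and within the GREM1 group at 20.7 on day 0, 9.68 on day 1 and 30.8 on day 3, against 0.0723 in all other fibroblasts. BMP4 stood at 3.56 on day 0, 5.14 on day 1 and 7.07 on day 3, a ratio of 1.38 (95% interval 1.21 to 1.56) for day 3 over day 1, and BMP5 at 1.495 on day 0, 1.43 on day 1 and 2.41 on day 3. None of 6 Hedgehog pathway genes was past 2-fold in either of these comparisons; PTCH1, a receptor that is also a target of the pathway, stood at 2.51 on day 0, 3.75 on day 1 and 3.54 on day 3. FOXL1 stood at 0.620 on day 0, 0.921 on day 1 and 1.04 on day 3 and FOXF1, a Hedgehog-responsive factor of gut mesenchyme, at 0.856 on day 0, 1.10 on day 1 and 1.08 on day 3.

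**Figure D4:**
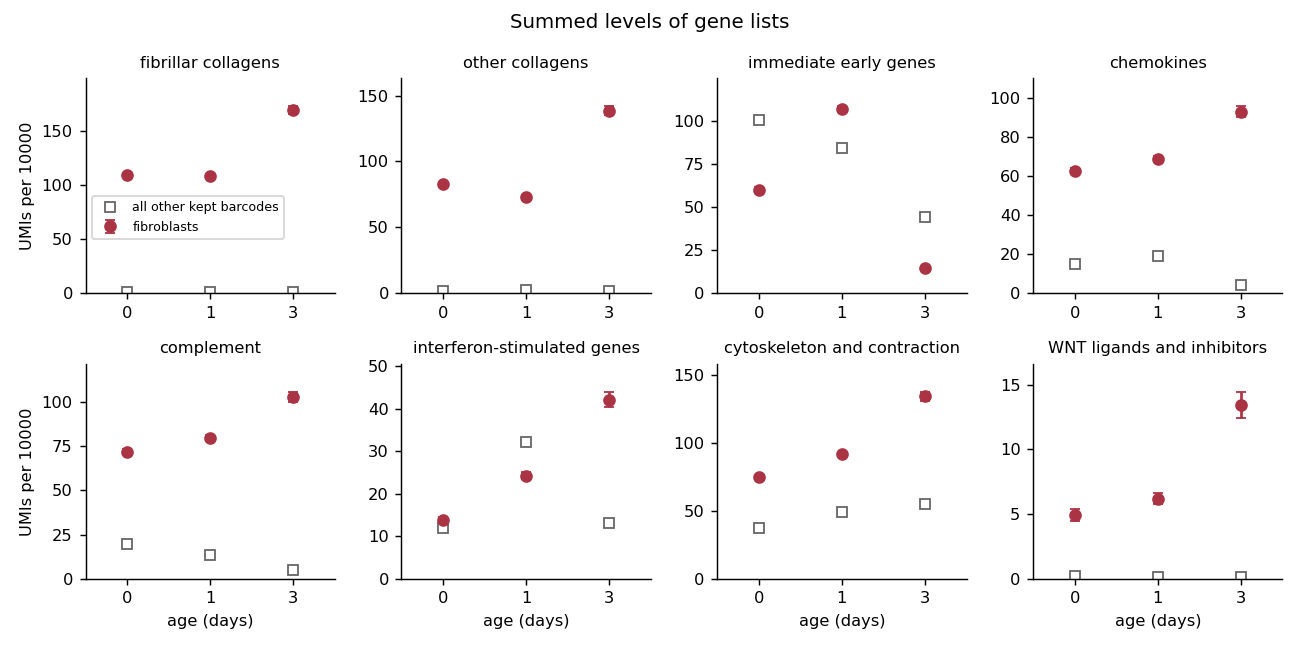
Summed level of 8 gene lists (UMIs per 10000, exact 95% Poisson intervals) in the fibroblasts of days 0, 1 and 3, with all other kept barcodes of the same libraries as open squares. Collagens, complement and WNT genes were near 0 to 19.9 in the other barcodes; immediate early genes in the fibroblasts were lowest on day 3, at 14.6.

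The interferon-stimulated genes together stood at 13.8 on day 0, 24.3 on day 1 and 42.2 on day 3 in the fibroblasts. In the COL15A1 group the list stood at 8.05 on day 0, 22.9 on day 1 and 21.2 on day 3, so day 3 was not above day 1 there. It stood at 14.8 on day 0, 12.4 on day 1 and 46.3 on day 3 in the CTGF group and at 36.2 on day 0, 38.4 on day 1 and 54.6 on day 3 in the SOX6 group. Of 8 compared between days 1 and 3, 3 were higher on day 3 (ISG12(A), IFI6 and MX1) and 1, IRF1, was lower. The shares over all genes were 4.21% and 6.33%. IFI6, a mitochondrial interferon-induced protein, stood at 4.496 on day 0, 4.16 on day 1 and 19.3 on day 3, a ratio of 4.64 (95% interval 4.19 to 5.14) for day 3 over day 1. It stood at 2.19 on day 0, 7.60 on day 1 and 14.4 on day 3 in the COL15A1 group and at 6.71 on day 0, 1.47 on day 1 and 11.7 on day 3 in the CTGF group. In the SOX6 group it stood at 11.6 on day 0, 6.79 on day 1 and 23.7 on day 3. MX1, an antiviral GTPase, stood at 0.246 on day 0, 0.270 on day 1 and 1.21 on day 3, or 25, 39 and 65 UMIs. In the other barcodes the list stood at 11.9 on day 0, 32.1 on day 1 and 13.2 on day 3, highest on day 1, whereas the sum over all fibroblasts was highest on day 3. Endothelial cells had 37.5 on day 0, 68.4 on day 1 and 115 on day 3. Muscle cells or pericytes were highest on day 1, at 11.5, 44.7 and 22.8, and follicular stromal cells stood at 95.7 on day 1 in 10 cells and 9.15 on day 3 in 23 cells. CXCL12 was also higher on day 3, at 1.32 on day 0, 1.46 on day 1 and 5.15 on day 3. In the SFRP2 group CXCL12 stood at 10.2 on day 0, 3.61 on day 1 and 21.8 on day 3, and in the SOX6 group at 0.761 on day 0, 2.96 on day 1 and 2.08 on day 3.

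Of 8 chemokines compared between days 1 and 3, CCL2, CCL11, CCL19 and CXCL2 were past 2-fold lower on day 3, and CXCL12 and CXCL14 higher. Over all genes compared between these days, 6.33% were lower and 4.21% higher. CXCL10 and CXCL13, which had been higher on day 1 than on day 0, were not lower on day 3 over all fibroblasts. Within the SOX6 group CXCL13 was lower on day 3, at the values given above, and the GREM1 group stood at 11.9 on day 1 and 29.99 on day 3, and the MKI67 group of 13 cells at 0 and 18.7. CCL2 had a ratio of 0.172 (95% interval 0.147 to 0.200) for day 3 over day 1, which was 0.347 in the COL15A1 group and 0.159 in the CTGF group. CCL11 had a ratio of 0.499 (95% interval 0.386 to 0.639). Within the COL15A1 group CCL11 stood at 3.58 on day 0, 4.65 on day 1 and 3.94 on day 3, and within the CTGF group at 1.79 on day 0, 5.49 on day 1 and 7.23 on day 3, so that day 3 was not past 2-fold below day 1 in either. The COL15A1 group had 46 cells on day 1 and 21 on day 3, the CTGF group 99 and 14, and in the SOX6 group CCL11 was at 0 UMIs on each day. Of 7 lipid-handling genes 3 were lower on day 3, APOD and CEBPD among them, and none was higher.

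Between days 3 and 0, 160 of 2321 genes were higher on day 3 (6.89%) and 112 lower (4.83%), with a median ratio of 1.12. Which direction had more genes depended on the scaling. With TMM factors 98 were higher and 139 lower at a median ratio of 0.987. Without mitochondrial and ribosomal protein genes in the total they numbered 104 and 135, and less the scaled low-barcode level 269 and 36. This comparison shares its libraries with the other 2. The highest ratios belonged to CHI3L1, MGP, C2, CLU, CXCL13, SFRP2, TGM2, ZUFSP, MYH11 and C4A. CHI3L1, a chitinase-like glycoprotein, stood at 0.0984 on day 0, 0.748 on day 1 and 1.73 on day 3, or 10, 108 and 93 UMIs. CHI3L1, C2 and CLU were highest in the GREM1 group. Without that group and the small groups with ACTG2, division, epithelial or lymphoid genes, CHI3L1 and C2 had no UMI left on day 3. CLU was then at 0.759 times its day 0 level. CXCL13 was at 0.706 times its day 0 level without the cells that held at least 3 UMIs of other lineages. TGM2, a transglutaminase that crosslinks matrix, stood at 0.275 on day 0, 0.644 on day 1 and 1.44 on day 3. Outside the immediate early list, the 10 lowest ratios included those of SLC2A3, a glucose transporter, at 0.935 on day 0, 1.47 on day 1 and 0.168 on day 3, and ZBTB16, a glucocorticoid-responsive factor, at 1.40 on day 0, 1.25 on day 1 and 0.466 on day 3. IGF2, the fetal growth factor, was the 1 growth factor of 9 past 2-fold, at 2.54 on day 0, 1.496 on day 1 and 0.877 on day 3. The other barcodes had 0.506 on day 0, 0.491 on day 1 and 0.0375 on day 3. BGN, biglycan, stood at 2.22 on day 0, 1.84 on day 1 and 1.04 on day 3.

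Of the 60 ratios with which genes were named for a pair of days, 5 were past 2-fold one way in fibroblasts and past 2-fold the other way in the other barcodes. Over all genes compared this held for 3 of 3737 for day 1 over day 0 (0.0803%), 34 of 3162 for day 3 over day 1 (1.08%) and 30 of 2321 for day 3 over day 0 (1.29%), where 0 of the 20 named ratios did so. The named genes were picked for extreme ratios in fibroblasts, so their count is not read against these shares. On day 3, F3 stood at 4.24 times its day 1 level in fibroblasts and at 0.0337 times its day 1 level elsewhere. CRYBG3, PLVAP and SULF2, an enzyme that edits heparan sulfate, had ratios of 4.61, 3.83 and 3.72 in fibroblasts, against 0.368, 0.167 and 0.439. SHAS2 was the fifth, lower in fibroblasts and higher elsewhere on day 1 than on day 0. The other barcodes are a mix of many cell types whose shares also differ between libraries.

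**Figure D5:**
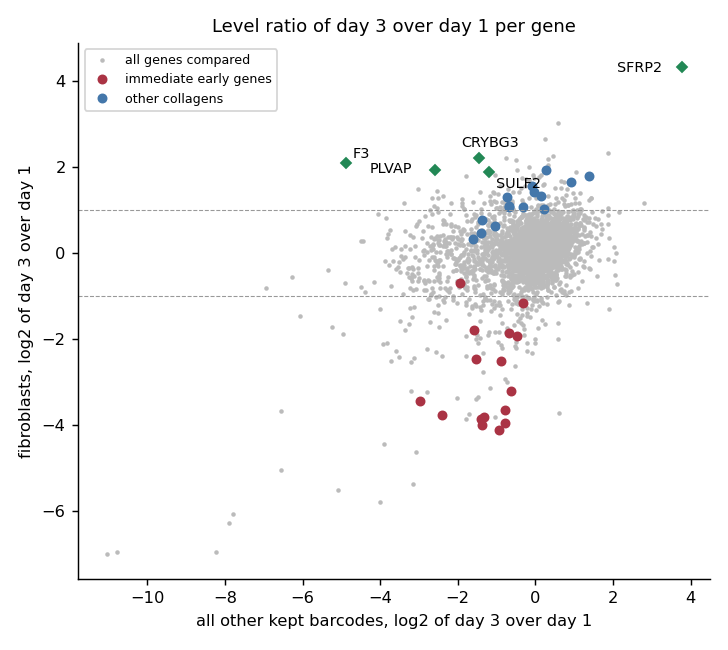
Log2 ratio of day 3 over day 1 for 3154 genes with UMIs on both days in both sets of barcodes, in all other kept barcodes (x axis) and in fibroblasts (y axis), with dashed lines at 2-fold. Immediate early genes lie low on the y axis, non-fibrillar collagens mostly above the upper line, and F3, PLVAP, CRYBG3 and SULF2 upper left, high in fibroblasts and low elsewhere.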

How the data were processed

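The authors deposited UMI counts per gene and barcode for 6 libraries, 1 an age, made with Cell Ranger 3.1.0, whose aligner is STAR, on the pig build susScr11 according to the submitters' processing notes. The tables held all barcodes, so the depth filter was applied here. All 20648 gene symbols matched the RefSeq table of Sscrofa11.1. Levels were summed UMIs per 10000 with exact Poisson intervals, ratios had exact conditional binomial intervals, and shares exact binomial (Clopper-Pearson) intervals (Python 3.11.15, scipy 1.17.1). Fibroblasts were clustered with leidenalg 0.10.2 on 2000 variable genes centred per library, with 15 components, 15 neighbours and resolution 0.5. Scripts were tested on simulated data. Named genes were the rule genes, the listed genes, the 10 highest and 10 lowest ratios of each pair of days among genes in at least 10% of cells of the higher day, the 20 furthest above other barcodes, and 10 leading genes of each group or stromal class. Members and lists were chosen with earlier results of these data known. Doublets were not called; cells with UMIs of other lineages were left out as an alternative. TMM factors came from edgeR 4.0.16. No sequence is shown, and some listed or named genes are not reported here.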

Additional observations from a re-analysis of the deposited data

Results flagged for a closer look

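Of the named genes, 5 differed past 2-fold in opposite directions between fibroblasts and the other kept barcodes of the same libraries, and none of these differences was tested. SHAS2 was at 0.464 times its day 0 level on day 1 in fibroblasts and at 2.04 times elsewhere. Between days 1 and 3, CRYBG3 had a ratio of 4.61 in fibroblasts and 0.368 elsewhere, and F3 4.24 and 0.0337. PLVAP had 3.83 and 0.167, and SULF2 3.72 and 0.439.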

How the results depend on the processing

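No paired analysis was possible because each age was 1 library and no result came from a test. Depth limits the comparison to genes with 100 UMIs over 2 days, and 3 libraries held no barcode that met the rule. Of 718 values of 60 named ratios under 12 settings, 599 stayed within the counting interval, 115 moved outside it and 4 reversed. CXCL2 gave no ratio under 2 settings that left it without a day 0 level. CXCL13 on day 3 over day 0 was 0.706 without cells with 3 or more UMIs of other lineages. CHI3L1 was 0, C2 0 and CLU 0.759 without the GREM1 group and the small groups with ACTG2, division, epithelial or lymphoid genes. The share of fibroblasts was 1.64% on day 0 and 1.98% on day 1 with a collagen minimum of 20 UMIs, and 1.61% on day 0 with at least 2 UMIs of PDGFRA and DPT. For day 1 over day 0, genes higher and lower numbered 342 and 151 with each cell thinned to 1000 UMIs, 1228 and 1138 of 12981 without the minimum, 47 and 16 of 1148 with at least 300 UMIs, 45 and 27 past 3-fold, and 344 and 18 of 3113 less the level of barcodes of 100 UMIs or fewer. For day 3 over day 1 they numbered 253 and 379 thinned, 1702 and 1111 of 12121 without the minimum, 44 and 73 of 923 with at least 300 UMIs, and 31 and 103 past 3-fold. For day 3 over day 0 they numbered 1687 and 1069 of 11976 without the minimum, 49 and 31 of 651 with at least 300 UMIs, 39 and 67 past 3-fold, and 269 and 36 of 1898 less the low-barcode level. There, 192 were lower after thinning, and 98 were higher with TMM factors, 104 without mitochondrial and ribosomal protein genes in the total and 101 without the 5% of cells with the most UMIs. A larger or smaller set of genes compared is part of the minimum settings, and for the others the cause was not tested. The thinned counts include more sampling error, since fewer UMIs remain. The level of barcodes of 100 UMIs or fewer was scaled by the epithelial markers, as described above, before it was subtracted.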

Other observations

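Other gene lists held further values. Of 12 growth factors compared between days 1 and 3, 3 were higher on day 3 and none lower. Over all genes compared between these days, 4.21% were higher and 6.33% lower. IGF1, a growth factor that stroma releases, stood at 0.935 on day 0, 0.582 on day 1 and 1.46 on day 3 in fibroblasts. KITLG, the ligand of KIT, stood at 0.305 on day 0, 0.416 on day 1 and 1.12 on day 3, and MDK, midkine, at 5.77 on day 0, 3.12 on day 1 and 8.37 on day 3. IGFBP5, which binds IGF, was higher on day 3 than on both earlier days, at 0.708 on day 0, 0.790 on day 1 and 1.604 on day 3. Of 7 genes of MHC class I and antigen processing compared, only SLA-2 was past 2-fold higher on day 3 than on day 1, and the list stood at 15.2 on day 0, 18.6 on day 1 and 25.1 on day 3. SLA genes resemble each other, so reads may be split between them. CD74, the invariant chain of MHC class II, stood at 1.08 on day 0, 1.03 on day 1 and 3.21 on day 3.

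Of 11 heat shock chaperones, 3 were lower on day 3 than on day 1 (DNAJB1, DNAJB4 and BAG3), and the list stood at 54.1 on day 0, 62.0 on day 1 and 49.9 on day 3. The share of all genes lower on day 3 than on day 1 was 6.33%. None of 12 hypoxia and glycolysis genes was past 2-fold between days 0 and 1, and ADM, adrenomedullin, was lower on day 3 than on both earlier days, at 1.84 on day 0, 2.17 on day 1 and 0.504 on day 3. APOD, a lipid-binding apolipoprotein, stood at 0.521 on day 0, 0.734 on day 1 and 0.168 on day 3, and PLIN2, which coats lipid droplets, at 0.866 on day 0, 1.99 on day 1 and 1.27 on day 3. The retinoic acid synthase ALDH1A2 stood at 0.266 on day 0, 0.630 on day 1 and 0.373 on day 3 and CRABP1, which binds retinoic acid, at 0.610 on day 0, 1.36 on day 1 and 1.81 on day 3, both past 2-fold higher on day 1 than on day 0.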
